A study of Mus musculus with 16 samples.

Results

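The genes described are 10 receptors and enzymes of extracellular nucleotide and adenosine signaling, taken by name from the deposited count table. They are the nucleotide receptors P2ry12, P2ry13, P2ry14 and P2ry6, the ATP-gated channels P2rx4 and P2rx7, the ectonucleotidases Entpd1 and Nt5e, and the adenosine receptors Adora3 and Adora2a. All 10 were found among the 24421 rows of the table, and all 10 had more than 10 counts in at least 4 of 16 libraries, the filter that left 14565 genes to test.

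The libraries came from CD11b+ cells of female C57BL/6J mice, a fraction of microglia and other myeloid cells that was held on a magnetic column after enzymatic dissociation of the brain. From weaning, and for a month, CON mice (n = 4) ate standard chow, and MAL mice (n = 5) ate an isocaloric diet low in protein and fat. MAL-BG mice (n = 7) ate the MAL diet and received oral gavages of a mix of commensal E. coli and Bacteroidales, and the other mice received gavages of saline. The design asked how the diet alone, and the diet with the bacteria, changed gene expression in these cells, and the study also measured microglial process motility. None of the 16 libraries came from mice that received bacteria on the standard chow, so MAL-BG was compared with CON for diet and bacteria together and with MAL for bacteria on the MAL diet. The labels name cortical tissue and the methods name whole cerebra, with 1 library per mouse. Libraries are numbered within a group by their columns of the table. Total counts ran from 10312703 to 13461574 in CON, from 10864121 to 12819982 in MAL and from 14191791 to 18705202 in MAL-BG, so MAL-BG was sequenced more deeply than both other groups.

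Cells release ATP and other nucleotides, which act on P2X channels and P2Y receptors until enzymes at the cell surface break them down. Entpd1 (CD39) removes phosphates from ATP and ADP, Nt5e (CD73) turns the resulting AMP into adenosine, and adenosine acts on receptors such as Adora3 and Adora2a. In microglia, P2Y12 senses ADP and steers processes toward sites of ATP release, and its gene is used as a marker of homeostatic microglia. P2Y6 senses UDP and is known for its part in phagocytosis, and P2X4 and P2X7 are cation channels of reactive microglia and of inflammasome signaling.

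On GRCm38, P2ry12 (chromosome 3, 59216272 to 59262871, minus strand) lies 5389 bases from P2ry13 (chromosome 3, 59207892 to 59210882, minus strand), and P2ry14 follows at 59113855 to 59153618 on the same strand. All 3 lie inside the span of Med12l, which runs on the plus strand from 59005825 to 59318682, and only P2ry12 shares exon bases with it (9 bases). P2rx7 (chromosome 5, 122643911 to 122691432) and P2rx4 (122707544 to 122729738) stand 16111 bases apart, both on the plus strand. The other genes lie apart from each other, with P2ry6 on chromosome 7 (100937630 to 100974649, minus strand), Entpd1 on chromosome 19 (40612366 to 40741602, plus strand), Nt5e on chromosome 9 (88327197 to 88372092, plus strand), Adora3 on chromosome 3 (105870858 to 105908926, plus strand) and Adora2a on chromosome 10 (75316877 to 75334784, plus strand).

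In each of these neighbor pairs, 1 gene passed the call between MAL-BG and CON and the other did not. The promoters of both pairs are therefore shown, as 300 bases of RefSeq sequence on GRCm38.p6, from 250 bases before the gene's start to 50 after it, 5′ to 3′ on the strand of the gene. Capitals mark matches, on either strand, to GAGGAA (the core of sites of PU.1, a factor of microglia and macrophages), to TGACTCA (AP-1) or to TGACGTCA (the cyclic AMP response element).
P2ry12, chr3:59262936-59263235, minus strand: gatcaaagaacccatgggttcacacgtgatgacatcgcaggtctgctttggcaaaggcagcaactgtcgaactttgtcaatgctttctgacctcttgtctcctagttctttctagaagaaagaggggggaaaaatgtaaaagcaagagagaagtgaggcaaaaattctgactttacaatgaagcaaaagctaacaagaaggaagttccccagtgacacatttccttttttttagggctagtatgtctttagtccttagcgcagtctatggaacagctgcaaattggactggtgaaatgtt
P2ry13, chr3:59210833-59211132, minus strand: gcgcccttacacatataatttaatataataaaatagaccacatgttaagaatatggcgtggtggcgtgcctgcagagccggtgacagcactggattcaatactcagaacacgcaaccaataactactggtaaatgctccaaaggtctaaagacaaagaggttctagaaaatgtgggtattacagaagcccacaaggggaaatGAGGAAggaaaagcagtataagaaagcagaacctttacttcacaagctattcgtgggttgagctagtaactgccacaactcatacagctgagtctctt
P2rx4, chr5:122707294-122707593, plus strand: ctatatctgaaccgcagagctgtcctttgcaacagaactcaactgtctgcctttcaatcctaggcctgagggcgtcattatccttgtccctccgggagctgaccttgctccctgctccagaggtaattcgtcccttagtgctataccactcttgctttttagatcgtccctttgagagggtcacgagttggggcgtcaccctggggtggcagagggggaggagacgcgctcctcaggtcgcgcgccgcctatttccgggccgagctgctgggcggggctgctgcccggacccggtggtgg
P2rx7, chr5:122643677-122643976, plus strand: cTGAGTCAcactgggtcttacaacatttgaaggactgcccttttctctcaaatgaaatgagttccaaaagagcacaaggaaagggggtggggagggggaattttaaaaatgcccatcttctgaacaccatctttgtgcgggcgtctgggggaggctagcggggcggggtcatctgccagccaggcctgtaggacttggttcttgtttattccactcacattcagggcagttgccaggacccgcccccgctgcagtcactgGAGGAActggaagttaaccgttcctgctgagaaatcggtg
The P2ry13 window held GAGGAA once and the P2rx7 window held GAGGAA and, on the other strand, TGACTCA. No match to these letters stood in the P2ry12 and P2rx4 windows. The P2ry12 window was set by another start than the one given above (59262871) and lies wholly before it. Bases after 59262871 were therefore not searched. Of 32851 promoter windows of the same length, 28.3% held GAGGAA, 5.2% TGACTCA and 1.8% TGACGTCA, counted on both strands. Windows were at hand for 8 of the 10 genes. Of those not shown, the windows of P2ry14 and Adora3, both not called, each held GAGGAA and TGACTCA on either strand. The windows of Entpd1, not called, and of Nt5e, called lower against CON, held no match.

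The levels of these genes covered 3 orders of magnitude in the control libraries. Per kilobase of exon, P2ry12 was highest in CON with 673 ± 80.6 CPM per kb (SD, n = 4), followed by P2ry13 with 241 ± 45.6. Entpd1 (65.0 ± 10.1), P2ry6 (46.4 ± 13.4) and P2rx7 (31.1 ± 14.5) came next, and their ranges overlapped from each to the next. P2rx4 (7.40 ± 2.36), Adora3 (5.49 ± 0.854) and Adora2a (2.87 ± 0.939) were lower, and Nt5e (0.682 ± 0.371) and P2ry14 (0.612 ± 0.326) were lowest and overlapped. CPM here are counts per 1000000 of the library size after TMM scaling. The first 8 places were the same in the MAL and MAL-BG means, and Nt5e was last in both. In MAL-BG, the P2ry12 and P2ry13 ranges came to overlap, although P2ry12 was higher in all 7 libraries.

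**Figure D1:**
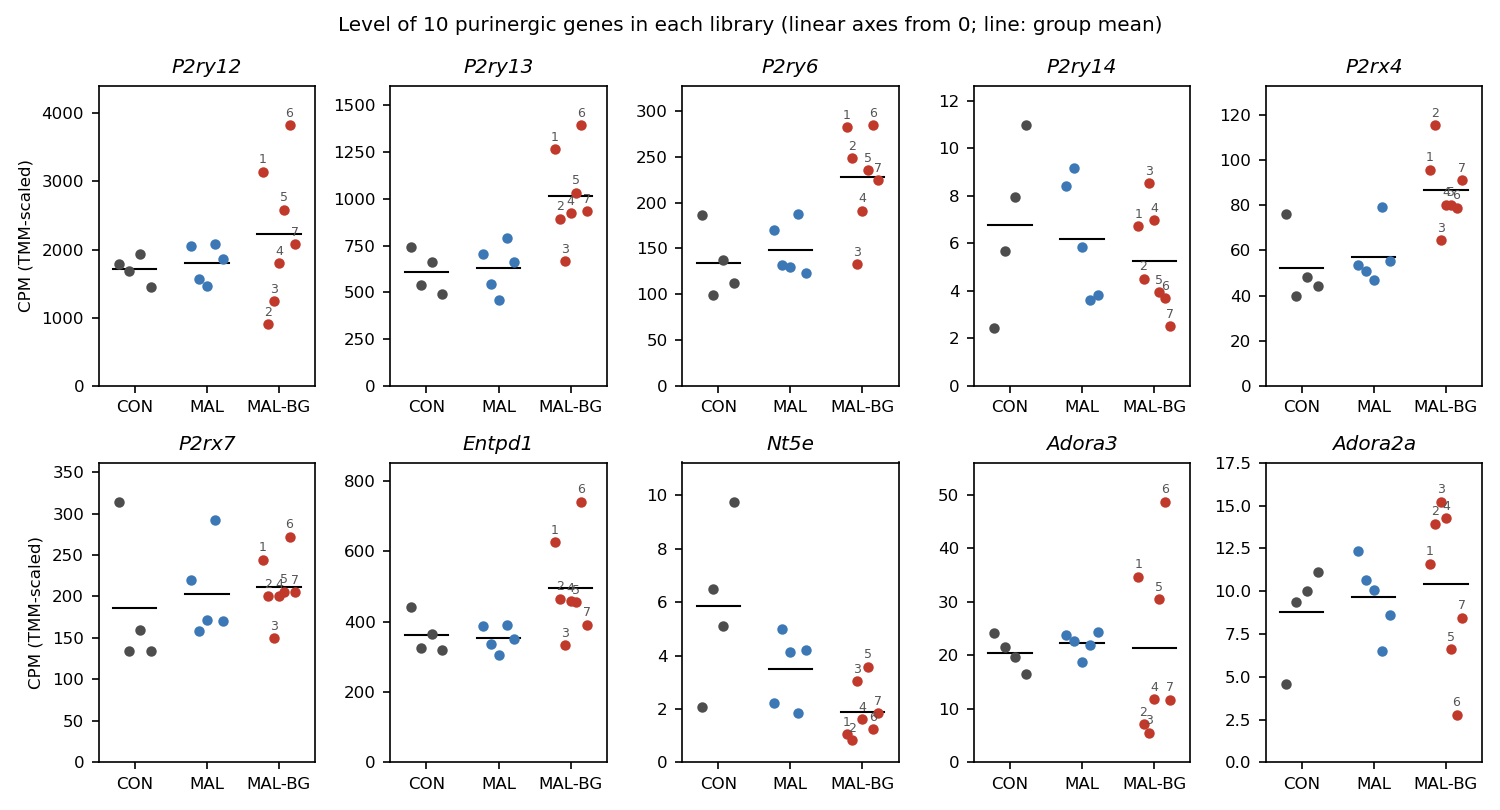
Level of each of the 10 genes in each library, in TMM-scaled CPM on linear axes that start at 0, for CON (n = 4), MAL (n = 5) and MAL-BG (n = 7); lines are group means and the digits beside MAL-BG points are column numbers. The MAL-BG points of P2ry12 spread from 910 to 3825 CPM and those of Adora3 from 5.58 to 48.7 CPM, around CON and MAL points that lie close together.

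In MAL-BG compared with CON, 4 of these 10 genes were called by edgeR's quasi-likelihood test (adjusted p under 0.05 over all genes and a log2 fold change beyond 0.58 in size), 3 higher (P2ry13, P2ry6 and P2rx4) and 1 lower (Nt5e). Over all 14565 genes 33.1% were called in this comparison, 11.4% higher and 21.7% lower. Between MAL-BG and MAL, the same 3 genes were higher and 0 were lower, where 30.4% of all genes were called, 10.2% higher and 20.2% lower. Between MAL and CON, 0 of 10 were called and 0.0% of all genes (212 of them had an unadjusted p under 0.05, and 241 in DESeq2, which also called 0). The median log2 fold change of the 10 genes was 0.31 against CON and 0.21 against MAL, where the medians of all genes were -0.04 and -0.03. Both comparisons share the 7 MAL-BG libraries. In none of the 10 did all MAL-BG libraries lie above or below all CON or all MAL libraries, which 9.83% (above) and 11.1% (below) of all genes did against CON and 7.86% and 8.95% against MAL.

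These directions are those of TMM scaling, and some turned under another scaling. The summed CPM of 18 microglia genes, such as Cx3cr1 and none of the 10, ran from 29279 to 46194 in CON, from 28424 to 48617 in MAL and from 61332 to 84297 in MAL-BG, and 12 of the 18 were called higher against CON. Scaling the libraries by that sum put the median of all genes at -1.05 against CON and at -1.01 against MAL, and gave all 10 genes a negative log2 fold change against both groups. Of the 10, 4 were then called lower against CON (P2ry12, P2ry14, P2rx7 and Nt5e) and the same 4, Adora3 and Adora2a against MAL, where 75.3% and 74.3% of all genes were called. Relative to the median of all genes, P2ry13, P2ry6 and P2rx4 stood 0.78, 0.81 and 0.78 higher against CON with TMM. With the microglia sum the values were 0.80, 0.84 and 0.81. Another library scaling moves all genes by nearly the same amount, so this closeness follows from the construction. A correction for the length and GC content of genes, with scaling by the mean log2 CPM, put the median of all genes at 0.25 and 0.24. Relative to that median, P2ry13, P2ry6 and P2rx4 stood 0.55, 0.71 and 0.90 higher against CON with these offsets. Of the genes called against CON, 34.4% were higher with TMM, 0.383% with the microglia sum and 61.6% with the offsets, and against MAL it was 33.4%, 0.351% and 61.5%.

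**Figure D2:**
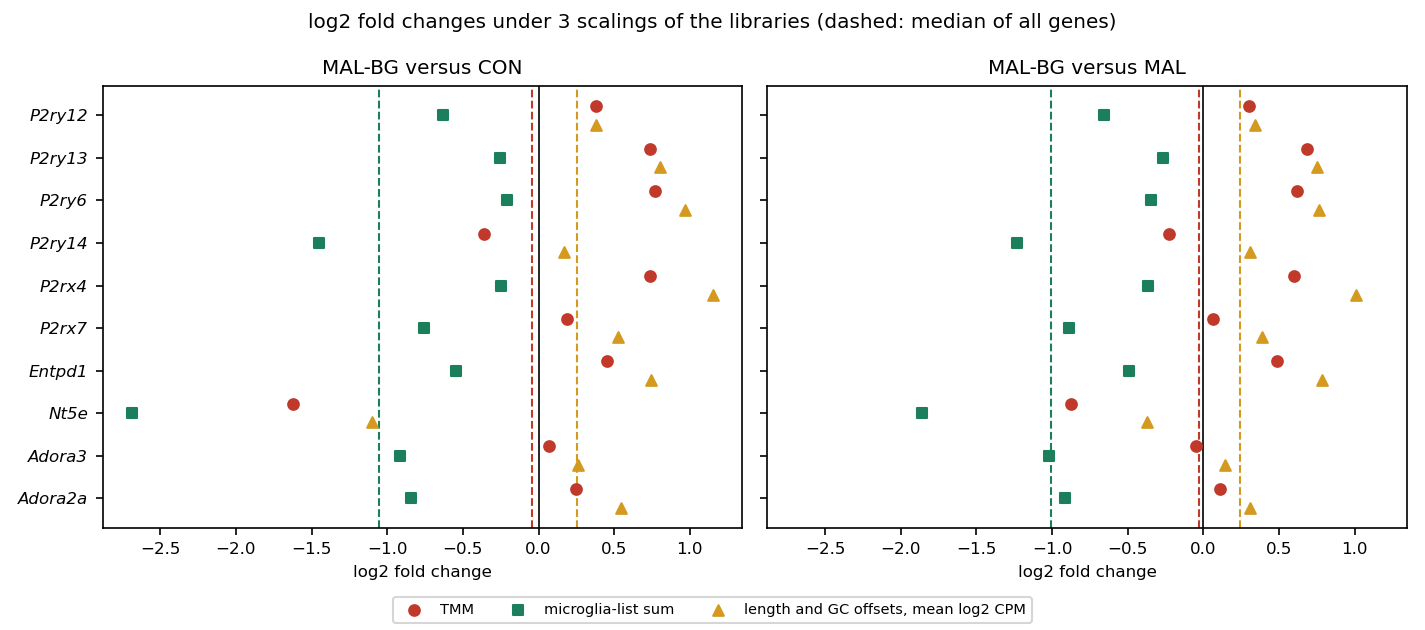
log2 fold changes of the 10 genes against CON (left) and MAL (right) under 3 scalings of the libraries; dashed lines are the medians of all genes under each scaling. P2ry13, P2ry6 and P2rx4 lie right of the median line under all 3, and left of 0 under the microglia-list sum, where the median of all genes is -1.05 and -1.01.

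Markers of other cells moved with the groups as well. Choroid plexus markers (11 of 11 called lower against CON, led by Ttr) summed to 13996 to 54234 CPM in CON, 6492 to 42710 in MAL and 1777 to 16622 in MAL-BG. Neuron (9 of 10) and astrocyte (5 of 8) markers were called lower against CON, and 9 of 10 neutrophil markers were called higher, with a sum of 13568 CPM in MAL-BG 5, 3320 in MAL-BG 7, 2592 in MAL-BG 2 and at most 1225 in all other libraries. CON 1, MAL 1 and MAL 4 had the lowest choroid plexus sums of their groups (13996, 12494 and 6492 CPM). In such bulk libraries, fewer cells of a type and less RNA per cell cannot be told apart, and the part of these cells and of depth in the results was not tested. Without CON 1, MAL 1 and MAL 4, an alternative chosen after seeing the data, 4 of the 10 genes were called against CON (37.5% of all genes) and 4 against MAL (34.2%). Without MAL-BG 2, 5 and 7 it was 5 against CON (26.9% of all genes) and 2 against MAL (24%).

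P2ry12, the ADP receptor of homeostatic microglia, was not called in any comparison with TMM scaling, and the MAL-BG libraries fell on both sides of the others. Its level was 1795, 1691, 1929 and 1444 CPM in CON and 2050, 1570, 1461, 2085 and 1859 CPM in MAL. In MAL-BG it ran from 910 CPM through a median of 2078 to 3825, with 4 of 7 libraries above all CON libraries and 2 below them. The log2 fold change was 0.38 against CON (95% confidence interval -0.25 to 1.0, adjusted p = 0.312 in edgeR) and 0.30 against MAL (-0.27 to 0.88, adjusted p = 0.382), and turned to -0.63 and -0.66 with the microglia sum, both called.

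The spread of P2ry12 was larger in MAL-BG than in the other groups. On the log2 scale its SD was 0.732 in MAL-BG against 0.178 in CON and 0.230 in MAL, and the ratio of the MAL-BG SD to the pooled SD of the other groups was 3.5, a value that 2.93% of all genes reached (median of all genes 1.11). These SDs are a description of 7, 4 and 5 libraries, with no test. MAL-BG 6, 1 and 5 were the highest and MAL-BG 2 and 3 the lowest.

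P2ry13, the ADP receptor encoded beside P2ry12, was higher in MAL-BG. It had 745, 537, 661 and 493.1 CPM in CON and 705, 544, 457, 791 and 662 CPM in MAL. In MAL-BG it had 668 to 1394 CPM with a median of 934, and 6 of 7 libraries lay above all CON and all MAL libraries, with MAL-BG 3 the exception. With TMM scaling the log2 fold change was 0.74 against CON (SE 0.198, adjusted p = 0.00655 in edgeR) and 0.69 against MAL (SE 0.183, adjusted p = 0.00659), a 1.67-fold and a 1.61-fold rise, while the values with the microglia sum were -0.25 and -0.27, not called.

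P2ry6, the UDP receptor, was also higher in MAL-BG. Its level was 187, 99.5, 137 and 112 CPM in CON, 170, 131, 130, 187 and 123 CPM in MAL, and 133 to 284 CPM in MAL-BG (median 235). All MAL-BG libraries but MAL-BG 3 lay above all CON and MAL libraries. The log2 fold change with TMM was 0.77 against CON (SE 0.209, adjusted p = 0.00701 in edgeR) and 0.62 against MAL (SE 0.193, adjusted p = 0.0156), while it was -0.21 and -0.35 with the microglia sum. The value against MAL stood near the fold threshold and fell below it without MAL 2, 3 or 5 or MAL-BG 6 (0.56 to 0.57).

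P2ry14, a receptor of UDP-sugars, was at the low end of the 10 genes, with 32 to 145 counts per library. It had 2.46, 5.66, 7.96 and 11.0 CPM in CON, 8.43, 9.18, 5.85, 3.63 and 3.82 CPM in MAL, and 2.52 to 8.55 CPM in MAL-BG (median 4.52), so the groups overlapped throughout. The log2 fold changes of -0.36 (95% confidence interval -1.18 to 0.46, adjusted p = 0.474 in edgeR) and -0.23 (-1.0 to 0.55, adjusted p = 0.635) were not called. They turned to 0.17 and 0.31, not called, with the offsets for length and GC content, and were -1.45 (adjusted p = 0.00754 in edgeR) and -1.23 (adjusted p = 0.0143), both called, with the microglia sum.

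Among the channels, P2rx4 was higher in MAL-BG and P2rx7 was not called with TMM scaling. P2rx4 had 76.3, 39.6, 48.1 and 44.1 CPM in CON, 53.4, 51.1, 46.8, 79.4 and 55.2 CPM in MAL, and 64.6 to 115 CPM in MAL-BG (median 80.3). CON 1 and MAL 4 reached the MAL-BG range and the other 7 libraries of those groups did not. With TMM the log2 fold change was 0.73 against CON (SE 0.193, adjusted p = 0.00568 in edgeR) and 0.60 against MAL (SE 0.178, adjusted p = 0.0121), while it was -0.25 and -0.36 with the microglia sum. Against MAL, the value was below the fold threshold without MAL 1, 2, 3 or 5 or MAL-BG 2 (0.53 to 0.58).

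P2rx7, the channel of low ATP affinity that opens the way to inflammasome activation, had 314, 134, 160 and 134 CPM in CON and 220, 159, 172, 292 and 171 CPM in MAL. Its MAL-BG values, 150 to 272 CPM with a median of 205, lay inside the CON range. CON 1 and MAL 4 were again the highest of their groups, and CON 1 was the highest of all 16 libraries. The log2 fold change was 0.19 against CON (95% confidence interval -0.31 to 0.68, adjusted p = 0.537 in edgeR) and 0.06 against MAL (-0.40 to 0.52, adjusted p = 0.840). With the microglia sum it was called lower in both comparisons (-0.75, adjusted p = 0.000477 in edgeR, and -0.89, adjusted p = 7.6e-05). Without CON 1 alone it was 0.55 against CON, and also without CON 1, MAL 1 and MAL 4 (adjusted p = 0.0109 in edgeR), which was below the fold threshold. CON 1 was the highest P2rx7 library of CON, so leaving it out had to raise this value.

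Of the ectonucleotidases, Entpd1 was not called and Nt5e was lower against CON. Entpd1 had 442, 325, 364 and 319 CPM in CON, 386, 336, 306, 391 and 352 CPM in MAL, and 333 to 741 CPM in MAL-BG (median 459). In MAL-BG, 5 of 7 libraries lay above all CON and all MAL libraries, and MAL-BG 3 and 7 did not. The log2 fold change was 0.45 against CON (SE 0.183, adjusted p = 0.0545 in edgeR) and 0.48 against MAL (SE 0.171, adjusted p = 0.0293), so neither was called, the latter for its size. Without MAL-BG 2, 5 and 7 the values were 0.65 and 0.68, and both were called, as they were with the offsets for length and GC content (0.74 and 0.78), while the microglia sum gave -0.55 and -0.49. Without MAL-BG 7 alone the value against MAL was 0.59 and was called. MAL-BG 7 was a low Entpd1 library of MAL-BG, so leaving it out raises the MAL-BG mean. The median of all genes against MAL also moved, from -0.03 to 0.03. The set of MAL-BG 2, 5 and 7 holds this library too, and the calls made by leaving libraries out are no further evidence of a rise.

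Nt5e was lower in MAL-BG than in CON. It had 2.07, 6.49, 5.12 and 9.76 CPM in CON (27 to 129 counts), 2.21, 4.998, 4.13, 1.85 and 4.22 CPM in MAL, and 0.843 to 3.58 CPM in MAL-BG (median 1.62, 11 to 66 counts). Of the MAL-BG libraries, 5 lay below all CON libraries and 4 below all MAL libraries. The log2 fold change with TMM was -1.62 against CON (SE 0.430, adjusted p = 0.00598 in edgeR), a level of 0.325 times that of CON, and -0.88 against MAL (SE 0.413, adjusted p = 0.0948), which was not called. The direction was the same under every scaling tried, but the size was not. The microglia sum gave -2.69 and -1.86 (adjusted p = 0.00025 and 0.00312 in edgeR, both called). Since that scaling lowered the median of all genes to -1.05 and -1.01, the negative sign under it followed from the construction. The offsets for length and GC content gave -1.1 and -0.38 (adjusted p = 0.0272 and 0.420 in edgeR, the first called).

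CON 1 had the lowest Nt5e of CON, and MAL 4 and MAL 1 the lowest of MAL, and the same libraries had the lowest choroid plexus sums of their groups. Leaving them out therefore had to enlarge the difference, and the values of -1.92 against CON and -1.24 against MAL without them are no further evidence of a fall. The same holds for the -1.13 against MAL without MAL-BG 5, the highest Nt5e library of MAL-BG.

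**Figure D3:**
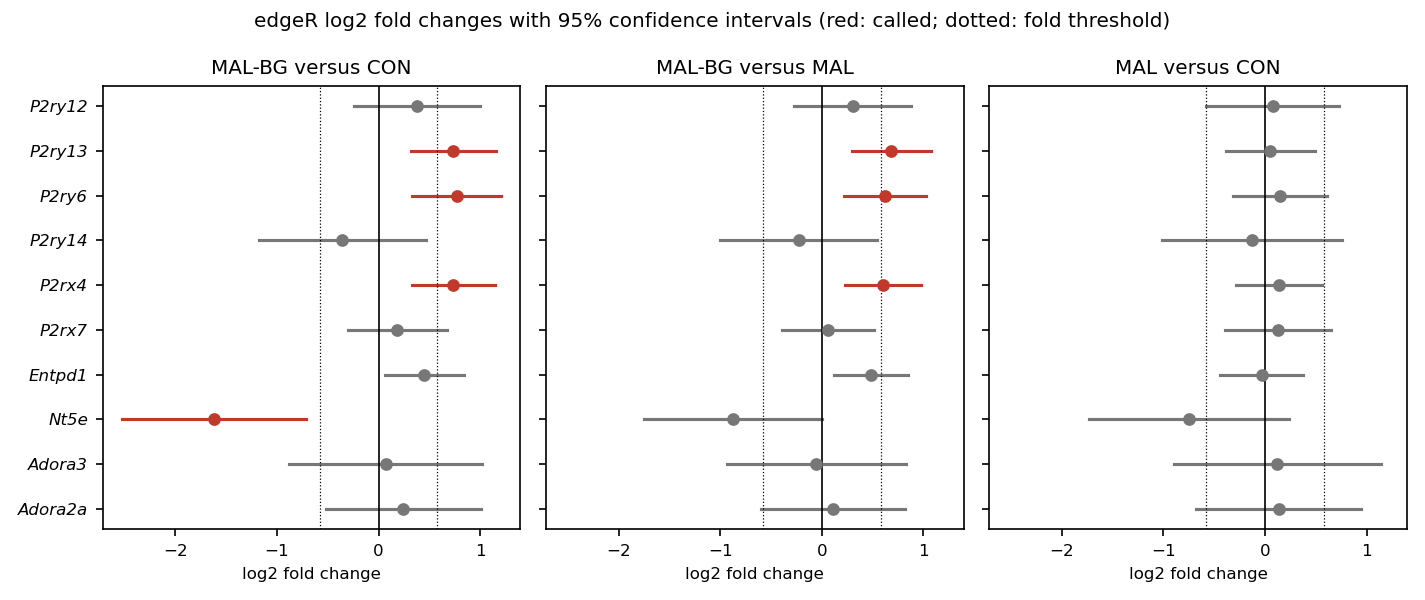
edgeR log2 fold changes of the 10 genes with 95% confidence intervals, TMM scaling, in the 3 comparisons; red marks called genes and dotted lines the fold threshold of 0.58. P2ry13, P2ry6 and P2rx4 are called higher in both MAL-BG comparisons, Nt5e lower against CON with -1.62, and no gene is called between MAL and CON; with the microglia-list sum the 3 higher values turn negative.

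Adora3, a Gi-coupled adenosine receptor, was not called in any comparison with TMM scaling, but its MAL-BG libraries all lay outside the range of the others. It had 24.1, 21.6, 19.6 and 16.6 CPM in CON and 23.8, 22.8, 18.7, 21.8 and 24.4 CPM in MAL. In MAL-BG it ran from 5.58 through a median of 11.8 to 48.7 CPM, with 3 libraries (MAL-BG 1, 5 and 6) above and 4 (MAL-BG 2, 3, 4 and 7) below all CON and all MAL libraries, and 0 inside their range. The log2 fold change was 0.07 against CON (95% confidence interval -0.88 to 1.02, adjusted p = 0.912 in edgeR) and -0.05 against MAL (-0.94 to 0.83, adjusted p = 0.930). With the microglia sum it was -0.92 against CON, not called, and -1.02 against MAL (adjusted p = 0.0366 in edgeR), called lower.

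The SD of Adora3 on the log2 scale was 1.20 in MAL-BG, 0.228 in CON and 0.151 in MAL. The ratio of the MAL-BG SD to the pooled SD of the others, 6.36, was reached by 42 genes, 0.288% of those tested. Adora3 shares 779 exon bases on the same strand with Tmigd3, which had 0 to 0.747 CPM in all libraries. MAL-BG 6, 1 and 5 were the highest of their group for Adora3, P2ry12 and P2ry13. In the same 3 libraries, the summed CPM of 10 neuron markers was 31.5, 48.1 and 36.2, against 51.0 to 98.2 in the other MAL-BG libraries. The ependyma sum divided them in the same way, with 25.4, 39.9 and 30.8 CPM against 41.0 to 102.8. The part of either sum in the split was not tested. No other marker sum divided these libraries so. The choroid plexus sum, for example, was 3541, 7230 and 3376 CPM in MAL-BG 6, 1 and 5, against 1777 to 16622 in the other MAL-BG libraries.

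Adora2a, a Gs-coupled adenosine receptor, had 4.61, 9.37, 10.01 and 11.1 CPM in CON, 12.3, 10.7, 10.1, 6.53 and 8.60 CPM in MAL, and 2.79 to 15.2 CPM in MAL-BG (median 11.6). MAL-BG 6, the highest library for Adora3 and P2ry12, was the lowest for Adora2a, and MAL-BG 3, the lowest for Adora3, was the highest. The log2 fold changes of 0.25 against CON (95% confidence interval -0.51 to 1.01, adjusted p = 0.602 in edgeR) and 0.11 against MAL (-0.59 to 0.81, adjusted p = 0.809) were not called. With the microglia sum they were -0.84, not called, and -0.91 (adjusted p = 0.0346 in edgeR), called lower. Adora2a is a known gene of striatal neurons, whose 6 markers here (Drd1, Drd2, Ppp1r1b, Penk, Gpr6 and Rgs9) summed to 16.8 to 130 CPM in MAL-BG and 67.6 to 285 CPM in CON. Over the 16 libraries, with group means taken off, Pearson's r of Adora2a with this sum was 0.55. It was 0.713 with the neuron sum and 0.809 with the endothelial and mural sum. The part of any of these cells in the Adora2a level was not tested. Genes called against CON also had such values. Pearson's r with the microglia sum was 0.673 for P2ry13, 0.686 for P2ry6, 0.856 for P2rx4 and -0.808 for Nt5e. With the choroid plexus sum it was -0.606, -0.786, -0.789 and 0.649, and the part of cell make-up in these levels was not tested either.

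**Figure D4:**
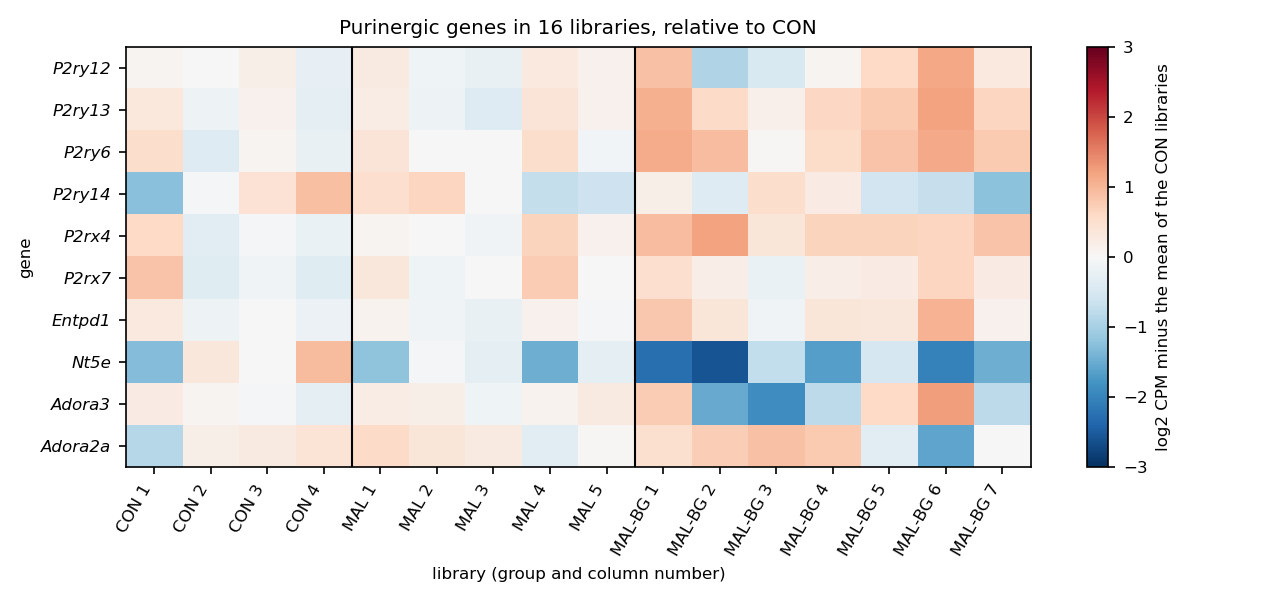
log2 CPM of each gene (rows) in each of the 16 libraries (columns), minus the mean of the CON libraries, with red for higher and blue for lower values. P2ry12 and Adora3 change sign among the MAL-BG libraries, with MAL-BG 1, 5 and 6 higher and MAL-BG 2 and 3 lower, and Nt5e is lower in all 7.

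Between MAL and CON, the 10 genes had log2 fold changes from -0.75 (Nt5e) to 0.15 (P2ry6), all with an adjusted p of 0.999 in edgeR. The interval of P2ry12 was -0.58 to 0.73 and that of Nt5e -1.73 to 0.24, and the latter holds the -1.62 seen between MAL-BG and CON. These intervals rest on 1 estimate of the spread for all 3 groups, so the wide MAL-BG spread of P2ry12 enters its interval. With only CON and MAL in the fit, the SE of P2ry12 was 0.161 instead of 0.312. The SE was larger in that fit for P2ry14, P2rx4 and P2rx7 (0.288 instead of 0.248 for P2rx7). For P2ry13 the interval was -0.38 to 0.49, and it did not reach the 0.74 seen between MAL-BG and CON. That value had an interval of 0.32 to 1.16, however, and the intervals overlap. Both comparisons share the CON libraries, so these intervals do not decide whether MAL and MAL-BG differ.

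Ratios of 2 genes in the same library do not depend on how libraries are scaled, and 5 ratios were compared between the groups in 15 two-sided exact permutation tests of the log2 count ratio. P2ry12 counts were 2.41 to 3.15 times those of P2ry13 in CON, 2.64 to 3.20 times in MAL and 1.02 to 2.74 times in MAL-BG, and the lowest was MAL-BG 2. The mean log2 ratio differed by -0.51 from MAL (exact permutation p = 0.00505, adjusted over the 15 tests 0.0568) and by -0.48 from CON (p = 0.0242, adjusted 0.0909), so neither passed the adjusted threshold. P2rx7 counts were 3.05 to 4.12 times those of P2rx4 in CON, 3.10 to 4.12 times in MAL and 1.73 to 3.44 times in MAL-BG.

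That second ratio had a log2 difference of -0.50 against CON (exact permutation p = 0.0242, adjusted 0.0909) and -0.53 against MAL (p = 0.00758, adjusted 0.0568). Only MAL-BG 6 reached the CON and MAL range, and without that library 4 of the 15 ratios were called, among them P2rx7 to P2rx4 against CON (-0.58, adjusted p = 0.0357) and MAL (-0.61, adjusted p = 0.0216), both by exact permutation. P2ry12 to P2ry13 (-0.58) and P2ry12 to P2ry6 (-0.53) were the other 2, both against MAL with an adjusted exact permutation p of 0.0216. In every ratio called here, MAL-BG 6 had the highest MAL-BG value. Leaving it out therefore had to enlarge the differences, and these calls are no further evidence of a fall. With all libraries, P2ry12 to P2ry6 differed by -0.54 against CON and -0.43 against MAL (adjusted exact permutation p = 0.136 and 0.124). The mean log2 ratio of Entpd1 to Nt5e differed by 2.01 from CON and 1.39 from MAL, with adjusted exact permutation p values of 0.0909 and 0.0947, and P2ry12 to Adora2a differed by 0.10 and 0.21 (adjusted p = 0.970 and 0.901, same test).

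**Figure D5:**
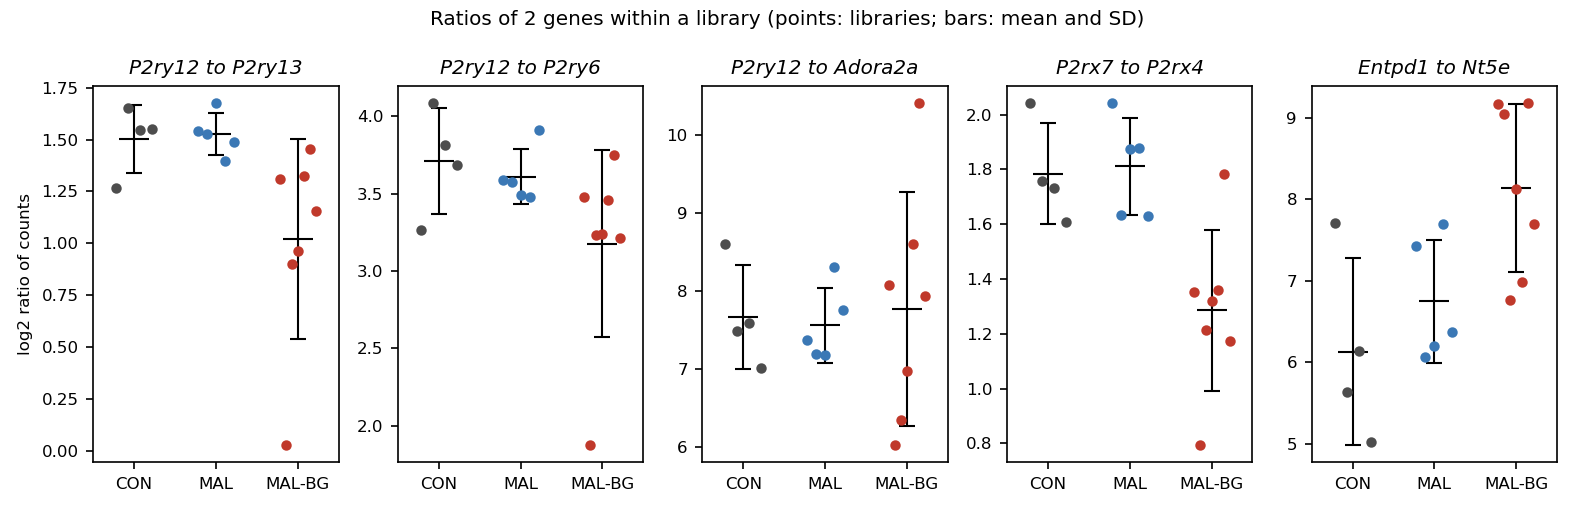
log2 ratio of the counts of 2 genes within each library for 5 pairs, with points for libraries and bars for the mean and SD of each group (n = 4, 5 and 7). In P2rx7 to P2rx4, 6 of 7 MAL-BG points lie below all CON and MAL points; none of the 15 comparisons had an adjusted p under 0.05 with all libraries.

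Of 38 other genes of nucleotide and adenosine signaling, 33 could be tested. Against CON 8 were higher and 7 lower, where 33.1% of all genes were called, and against MAL 4 were higher and 7 lower, where it was 30.4%, while 0 were called between MAL and CON (0.0% of all genes). With the microglia sum, 0 were higher and 20 lower against each group (75.3% and 74.3% of all genes were called), and with the offsets 10 were higher and 6 lower against CON and 10 higher and 5 lower against MAL (40.4% and 37.3% of all genes). In both MAL-BG comparisons 11 were called, 4 higher and 7 lower, and their median over the 33 genes was 0.19 against CON and 0.19 against MAL. Kcnk13, which encodes the THIK-1 potassium channel, rose from 39.8 ± 10.1 CPM (SD, n = 4) in CON and 43.9 ± 9.83 (n = 5) in MAL to 107 ± 17.9 (n = 7) in MAL-BG. In edgeR the log2 fold change reached 1.42 relative to CON (adjusted p = 4.93e-05) and 1.28 relative to MAL (adjusted p = 5.29e-05), and it stayed positive against CON with the microglia sum (0.42).

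The 7 lower genes of the 11 also had negative values against CON under the length and GC offsets, and 6 of them had low levels. Under the microglia sum their values were negative by construction, since that scaling put the median of all genes at -1.05 against CON. Panx2, a pannexin of neurons, had the largest change, from 5.69 ± 2.82 CPM in CON to 0.256 ± 0.273 in MAL-BG (log2 fold change -4.37, adjusted p = 0.000149 in edgeR). P2rx6 (-2.01), the lysophospholipid-responsive receptor gene P2ry10 (-1.75), the ectonucleotidase gene Entpd3 (-1.57) and the adenosine receptor genes Adora1 (-1.26) and Adora2b (-1.10) were each below 12 CPM in the mean of every group. Gnas, the gene of the Gs protein that couples Adora2a and Adora2b to adenylyl cyclase, had 1249 ± 237 CPM in CON and 1087 ± 135 CPM in MAL but 573 ± 174 CPM in MAL-BG (log2 fold change -1.12, adjusted p = 0.000428 in edgeR). With the offsets for length and GC content the Gnas value was -0.37 (adjusted p = 0.172 in edgeR) and the call was lost. Adora1 and Adora2b, the other adenosine receptors, were thus both called lower, and Adora3 and Adora2a were not called.

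Of the other genes at the P2ry12 locus, 1 was called, and it was lower. Med12l, whose span covers the cluster on the other strand, had 49.2 to 114 CPM over all libraries and log2 fold changes of 0.02 relative to CON (adjusted p = 0.936 in edgeR) and -0.07 relative to MAL (adjusted p = 0.785). Gpr171, between P2ry14 and the start of Med12l, was lower in MAL-BG, with 3.18 to 4.22 CPM in CON, 3.66 to 6.19 in MAL and 0.306 to 2.20 in MAL-BG (log2 fold change -1.76, adjusted p = 0.000649 in edgeR). Igsf10 was not called (-0.27). The kit kept the strand of the RNA, but the strand setting of the counting is not given in the sources used here, and without it reads of genes on opposite strands cannot be told apart.

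The genes whose levels followed each of the 10 most closely were found from log2 CPM over the 16 libraries after the group means were taken off, as Pearson's r and as a description. P2ry12 was nearest to Xlr (r = 0.973), Stt3a (0.968) and D6Wsu163e (0.967). P2ry13 was nearest to Tlr13 (0.967), Mpeg1 (0.961) and Il7r (0.957), of which Tlr13 and Mpeg1 are genes of myeloid cells. P2ry6 was nearest to Rasa3 (0.988), Abi3 (0.969) and Ccdc97 (0.957), and P2rx7 to Nrros (0.973), Sema4b (0.964) and Heatr1 (0.956). Abi3 and Nrros are known as genes of microglia.

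P2rx4 was nearest to Il4ra (0.971), Ntpcr (0.966) and Vps18 (0.960), and Entpd1 to Man1c1 (0.956), Tlr7 (0.940) and Limk1 (0.936). Adora3 was nearest to Lpcat1 (0.991) and Tlr9 (0.988), and Adora2a to Adcyap1r1 (0.973), Trpc4 (0.962) and Tmem51 (0.961). The low genes P2ry14 (Gfra2 0.953, Tbxa2r 0.937 and Rbpms 0.927) and Nt5e (Epdr1 0.946, Wnk4 0.926 and Zfhx4 0.923) had such genes too. None of the 10 was among the 3 nearest genes of another, and all points share their libraries, so depth and cell make-up of a library move all genes in it together.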

How the data were processed

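CD11b+ cells were selected with magnetic beads, and strand-keeping libraries of poly(A) RNA were sequenced in pairs. The authors aligned reads to GRCm38.p6 with STAR and deposited raw HTSeq counts per gene, not normalized (HTSeq 2.5 per the labels). The counting mode, strand setting and annotation are not given in the sources used here. The columns of the table name a group and a running number that matches no title, and no label gives the batch of a library. The study's own DESeq2 model had a batch term, so its libraries came in batches that no fit here accounts for, and an effect of batch on the differences between groups cannot be told apart from them.

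Genes that exceeded 10 counts in 4 or more libraries entered edgeR 4.0.16 (R 4.3.3), with TMM scaling, 1 quasi-likelihood fit of the 3 groups and Benjamini-Hochberg adjustment over 14565 genes. A gene was called where the adjusted p was under 0.05 and the log2 fold change exceeded 0.58 (1.5-fold) in size. CPM are counts per 1000000 of TMM-scaled totals, and exon lengths came from the GENCODE M21 annotation. Log2 count ratios, with 0.5 counts added, were compared by exact permutation and adjusted over 15 tests. The fit was checked on simulated counts. DESeq2 1.42.0 and limma 3.58.1 served as alternatives or support.

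The 10 genes and all lists were chosen with earlier results of these data known. The text names the 10 genes in all comparisons, at most 8 other purinergic genes called in both MAL-BG comparisons by the largest change against CON, the locus neighbors, and the 3 genes nearest to each of the 10. A few genes that this rule takes in are not reported here. Marker lists of 9 further cell types were summed per library. Of these, ependyma, striatal neuron and monocyte markers had 6 of 7, 3 of 4 and 4 of 9 tested genes called lower against CON. Oligodendrocyte markers had 3 higher and 1 lower of 9, endothelial and mural markers 2 and 1 of 11, lymphocyte markers 3 and 0 of 6, erythroid markers 1 and 0 of 1, fibroblast markers 0 and 1 of 6 and border macrophage markers 0 and 1 of 9.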

Additional observations from a re-analysis of the deposited data

Results flagged for a closer look

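Of 45 sets of library values examined, 5 held a library far from the others of its group, where chance gives about 1 in 20. P2rx4 was high in MAL 4, at 79.4 CPM against 46.8 to 55.2 CPM in the other MAL libraries. P2rx7 was high in CON 1, at 314 CPM against 134 to 160 CPM. These 2 libraries also had the highest microglia-marker sums of their groups (48617 and 46194 CPM), and the part of that in the values was not tested. In MAL-BG 2, the log2 ratio of P2ry12 to P2ry13 (0.026) and that of P2ry12 to P2ry6 (1.87) were the lowest of the group and stood apart. In MAL 5, the log2 ratio of P2ry12 to P2ry6 was the highest of MAL (3.91).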

How the results depend on the processing

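With the microglia sum, 6 of the 10 genes were called against MAL and 4 against CON, all lower, and 20 other purinergic genes, where 74.3% and 75.3% of all genes were called. The log2 fold changes against CON and MAL were -0.63 and -0.66 for P2ry12, -0.25 and -0.27 for P2ry13, -0.21 and -0.35 for P2ry6, -0.25 and -0.36 for P2rx4, -0.75 and -0.89 for P2rx7, -1.45 and -1.23 for P2ry14, -2.69 and -1.86 for Nt5e, -0.55 and -0.49 for Entpd1, -0.84 and -0.91 for Adora2a and -0.92 and -1.02 for Adora3, with P2ry12, P2rx7, P2ry14 and Nt5e called against both and Adora2a and Adora3 against MAL. This follows from the construction, since the sum itself was higher in every MAL-BG library than in all CON and MAL libraries. The offsets for length and GC content gave 0.17 and 0.31 for P2ry14 and 0.14 for Adora3 against MAL. With more than 10 counts asked of every library, 1 of the 10 genes was called against MAL (P2ry13, 25.9% of all genes), and with no fold threshold 17 other purinergic genes (44.3% of all genes). As a difference of edgeR values, the log2 ratio of P2rx7 to P2rx4 between MAL and CON was -0.0098.

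With 1 library left out in turn, 4 of the 10 genes were called against CON throughout, 1 to 4 against MAL (1 without MAL 2, 3 or 5) and 0 between MAL and CON. Of all genes, 27.9% to 37.3% were called against CON in these fits, and 26.2% to 33.5% against MAL. Of the other purinergic genes, 11 to 18 were called against CON and 9 to 14 against MAL, and 0 to 4 of the 15 ratios were called (4 without MAL-BG 6). Between MAL and CON the log2 fold changes ran from -0.0014 to 0.14 (P2ry12), -0.043 to 0.16 (P2ry13), -0.42 to 0.20 (P2ry14), -0.013 to 0.37 (P2rx4), -0.043 to 0.50 (P2rx7), -0.091 to 0.066 (Entpd1) and -0.087 to 0.27 (Adora2a). Against MAL they ran from -0.021 to 0.22 (P2rx7), -0.39 to 0.17 (Adora3) and -0.018 to 0.28 (Adora2a), and against CON from -0.27 to 0.30 (Adora3). Between MAL and CON the log2 ratios ran from -0.056 to 0.072 (P2ry12 to P2ry13), -0.25 to 0.021 (P2ry12 to P2ry6), -0.33 to 0.20 (P2ry12 to Adora2a) and -0.032 to 0.11 (P2rx7 to P2rx4). P2ry12 to Adora2a ran from -0.34 to 0.40 against CON and from -0.23 to 0.50 against MAL.

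Of the 2 alternatives chosen after seeing the data, leaving out CON 1, MAL 1 and MAL 4 gave, between MAL and CON, -0.055 for P2ry12, -0.029 for P2ry13, -0.063 for Adora2a, and log2 ratios of -0.019 for P2ry12 to P2ry13 and 0.011 for P2ry12 to Adora2a. Leaving out MAL-BG 2, 5 and 7 gave 0.023 and 0.14 for P2ry14 against CON and MAL, and 0.26 for Adora3 against MAL. The calls of P2ry6 (0.66, adjusted p = 0.0633 in edgeR) and P2rx4 (0.55, adjusted p = 0.0673) against MAL were then lost. Upper-quartile scaling and thinning to the smallest total also took P2rx4 against MAL below the fold threshold (0.57 in each). DESeq2 called 4 of the 10 genes against CON (34.5% of all genes) and 3 against MAL (32.3%). Except as given, the cause was not tested. No paired analysis was possible because the columns carry running numbers that match no sample title. Depth limits P2ry14, Nt5e and Adora2a most, with 11 to 229 counts per library.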
